A study of Mus musculus with 14 samples.

Results

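The comparison described here sets 3 adherent mouse lines, labelled fibroblast, embryo fibroblast and skin and called the trio below, against the 5 other adherent lines of the series, labelled mammary tumor, liver, kidney, testis and myoblast. The trio was chosen by its labels and by earlier results of these arrays, and its markers were given as Hmga2, Crabp1 and Grem1. It holds 4 of the 14 arrays and 3 of the 11 lines. The other adherent lines hold 6 arrays. The 3 blood-cell lines (macrophage, myeloma and T-cell lymphoma, 4 arrays) were outside the comparison and are given as values only. Total RNA of each line, in Cy5, was hybridised with a commercial pool of mouse cell line RNA from Stratagene, in Cy3, on a two-colour spotted array. The fibroblast, mammary tumor and myeloma lines had 2 arrays each and every other line had 1. The labels give no treatment, strain, sex or age, and they identify each line only by its tissue or cell type, and they do not say whether a line is 1 clone or keeps the functions of its tissue. The titles call the samples cell lines and a short annotation calls them primary tissue. On the first mammary tumor array the label of the pool carries 3 further letters.

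Fibroblasts are the cells of connective tissue that make fibrillar collagen, proteoglycans and the enzymes that cross-link and remodel the matrix. They answer to platelet-derived growth factor and to TGF-beta, and they send ligands such as FGF7 and FGF10 to neighbouring epithelium. The marker HMGA2 is a chromatin protein of embryonic tissue that most adult tissues make little of. Each value below is a log2 ratio of a line over the pool after the median of its array was set to 0, so a value above 0 means more RNA of that gene in the line than in the pool. A gene made equally by the trio and by no other line would read 1.87 in a pool made of equal shares of all 11 lines.

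The label fibroblast-like was checked against the usual fibroblast markers, which did not clearly bear it out for 2 of the 3 lines. In embryo fibroblast and skin most probes read below the pool. Embryo fibroblast, however, had the highest Thy1 and Vim of the adherent lines. Over 8 probes of 7 fibroblast markers the median level was -0.04 in the fibroblast line, -1.02 in the embryo fibroblast line and -1.37 in the skin line, against -1.32 in mammary tumor, -1.98 in liver, -1.83 in kidney, 0.52 in testis and -0.16 in myoblast. The testis line thus stood above all 3 trio lines. Col1a1, the main chain of type I collagen, read -0.74 and 0.97 on the 2 fibroblast arrays, -1.37 in embryo fibroblast and -1.49 in skin, against 1.72 in testis and 2.12 in myoblast. Dcn, the collagen-binding proteoglycan decorin, read 2.12 and 1.88 on the fibroblast arrays but -0.66 in embryo fibroblast and -5.63 in skin, against 1.11 in testis and -2.004 in myoblast. Thy1, a surface marker of many fibroblasts, was above 0 only in embryo fibroblast among the adherent lines (1.44). Vim, the intermediate filament of mesenchymal cells, was the marker on which the line means of the trio stood together. It read 0.94 in fibroblast, 1.62 in embryo fibroblast and 1.05 in skin. The values in mammary tumor, liver, kidney, testis and myoblast were 0.73, -0.40, -0.82, -1.22 and 0.89. By array the groups overlapped, since fibroblast array 1 (0.55) lay below myoblast and below mammary tumor array 2 (1.09). The group is therefore called by its members and not by a cell type.

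Markers of other cell types ranged from low to near the pool in the trio. The 4 leukocyte markers had a median of -3.41 in fibroblast, -2.29 in embryo fibroblast and -3.56 in skin, and between -3.89 and -2.94 in the other adherent lines. The 5 epithelial markers had medians of -1.71, -2.85 and -1.38 in the same 3 lines. In the other adherent lines these ran from -1.29 in myoblast to -0.47 in liver, so skin lay close to myoblast. Of these markers Krt8 (2.54) and Krt19 (2.80) were above the pool in the liver line only. In the skin line the 3 keratinocyte markers had a median of -0.17 and the 4 melanocyte markers one of -0.21, so neither set put that line above the pool. The 5 muscle markers had a median of 3.47 in the myoblast line and one below 0 in each of the other adherent lines. Liver, kidney and mammary gland markers stood near the pool in the lines labelled with those tissues (medians of -0.10, -0.54 and 0.07). The liver markers had medians of -0.10 in fibroblast, 0.29 in embryo fibroblast and 0.22 in skin, the 4 kidney markers -0.73, -0.73 and -0.48, and the mammary markers -0.33, -1.56 and 0.23. The 4 testis somatic cell markers had medians of -0.23, 0.44 and -0.08 in these lines, against -0.37 in the testis line, and the 4 endothelial markers had medians of -0.21, 0.28 and -0.38. The part of such cells in the results was not tested. In bulk RNA, fewer cells of a type and less RNA per cell cannot be told apart.

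Replicate arrays set the scale for what follows. Across 7460 probes the 2 fibroblast arrays correlated with r = 0.38, which is lower than the r = 0.49 between fibroblast array 1 and the skin array and lower than the r = 0.40 between fibroblast array 2 and the myoblast array. The 2 mammary tumor arrays correlated with r = 0.67. The 5 pairs of arrays from different trio lines ranged from 0.32 to 0.49 (median 0.33), and the 24 pairs of a trio array with another adherent array ranged from 0.05 to 0.44 (median 0.24). All arrays share the pool, so these correlations describe the arrays and carry no test. The highest pair across the division was embryo fibroblast with kidney (r = 0.44), 2 arrays whose image numbers in the labels lie in 1 run. The labels do not say what such a run stands for.

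**Figure D1:**
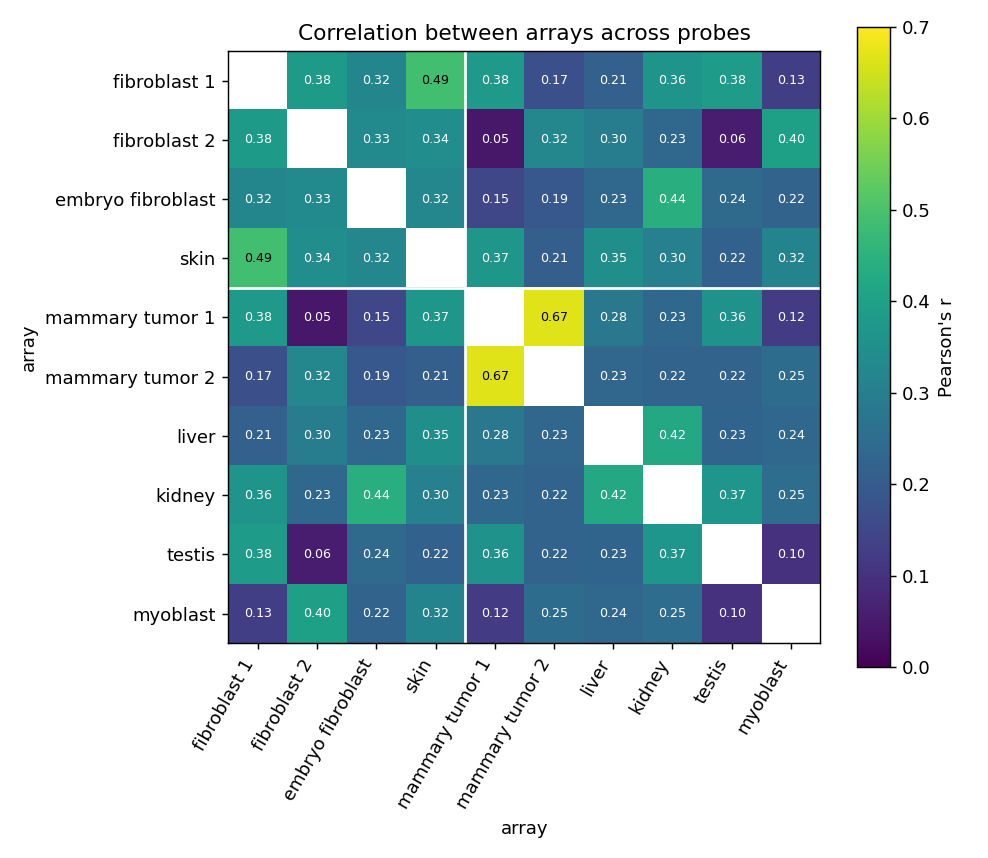
Pearson's r across probes between the 10 adherent arrays, with the trio arrays first and white lines marking the division. The 2 mammary tumor arrays are the most alike pair (0.67), while the 2 fibroblast arrays reach 0.38, less than fibroblast 1 with skin (0.49).

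Among the 7497 features measured in each of the 8 lines, 3 were called higher in the trio (0.04%) and 1 was called lower (0.0133%), 4 in all (0.0534%), by limma at a Benjamini-Hochberg adjusted p under 0.05, with the line as the replicate. The 3 higher genes were Hmga2, Stat4 and Adm, and the lower gene was Pdgfb. At an unadjusted p under 0.05 there were 386 features (5.15%), near the share that this threshold passes where no feature differs. In 119 features (1.59%) all 3 trio lines lay above all 5 other lines, and in 174 (2.32%) all 3 lay below. There are 56 ways to choose 3 of 8 lines, so lines without any grouping would put about 1 feature in 56 on each side. These shares are near that. The p-values measure the spread between line means within each group. Most lines had 1 array and no label mentions separate cultures. Differences between lines and technical differences between arrays therefore cannot be told apart in that spread. Since the trio was proposed with results of these arrays known, the p-values are not independent evidence for its grouping.

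Hmga2 codes for a DNA-bending protein of embryonic and mesenchymal cells. It was the gene with the smallest p. Its log2 ratio was 2.48 and 2.50 on the 2 fibroblast arrays, 2.43 in embryo fibroblast and 1.66 in skin, against -0.84 and -0.81 on the 2 mammary tumor arrays, -1.87 in liver, -2.43 in kidney, -1.29 in testis and -2.18 in myoblast. The groups did not overlap, and the gap between skin and mammary tumor spanned more than the whole range within the trio. Fibroblast and embryo fibroblast read almost alike and stood above the 1.87 of a gene made equally by the trio only, with skin a little under it. The trio averaged 2.19 ± 0.47 and the other lines -1.72 ± 0.66 (SD, n = 3 and 5 lines). The difference was 3.91 ± 0.41 (SE) on the log2 scale, a 15.1-fold higher ratio, with an adjusted p of 0.0133. The blood-cell lines lay below every adherent line, at -2.69 in macrophage, -3.28 in myeloma and -4.01 in T-cell lymphoma. Over 20 other ways to process or group the arrays the adjusted p ran from 0.000559 to 0.841, and the call was lost with the skin line counted among the others (0.841), without embryo fibroblast (0.077) and without both fibroblast arrays (0.136).

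Stat4, the transcription factor through which interleukin-12 acts in T cells, had the next largest difference among the called genes that were higher. It read 2.12 and 2.59 on the fibroblast arrays, 1.78 in embryo fibroblast and 1.71 in skin, against -0.75 and 0.40 on the mammary tumor arrays, -1.28 in liver, -1.43 in kidney, -1.28 in testis and -1.68 in myoblast. The lines did not overlap, and the second mammary tumor array came nearest to the trio. Its difference was 3.12 ± 0.38 (SE), 8.68-fold, with an adjusted p of 0.0159. In the T-cell lymphoma line, from the lineage in which STAT4 is best known, it read -2.42, the lowest of the 11 line values. Over the same 20 alternatives its adjusted p ran from 0.00508 to 0.939 and it was called in 13. It was not called with skin among the others (0.939), with the image run as a block (0.131), or without mammary tumor array 1 (0.0867), testis (0.0761), embryo fibroblast (0.0986), skin (0.092) or both fibroblast arrays (0.136).

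The probes for Hmga2 and Stat4 hold consecutive rows of the value table. Across the 14 arrays they correlated with r = 0.96. Pairs of probes in consecutive rows had a median r of 0.34, and 1.96% of 6941 such pairs exceeded 0.9, while pairs 100 rows apart had a median of 0.07 and 0.0295% of 6786 pairs exceeded 0.9. The probes of the growth factor genes Fgf7 and Fgf11 are also consecutive and correlated with r = 0.96 over 13 arrays. A second Fgf11 probe elsewhere in the table had a difference of -0.09, against 1.75 at the probe beside Fgf7. For Stat4 no second probe was on the array. Of 60 pairs that the 30 genes named by direction form with their neighbours, 9 exceeded 0.7. They included Ctsl with Pga5 (0.84), Tgm2 with Dyrk1a (0.78), Col12a1 with Cbln3 (0.74) and Igfbp7 with Nf1 (0.73). The marker Grem1 correlated with its neighbour Hey2 at r = 0.78. The part that neighbouring rows play in the values of Stat4 and of these other genes was not tested.

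**Figure D2:**
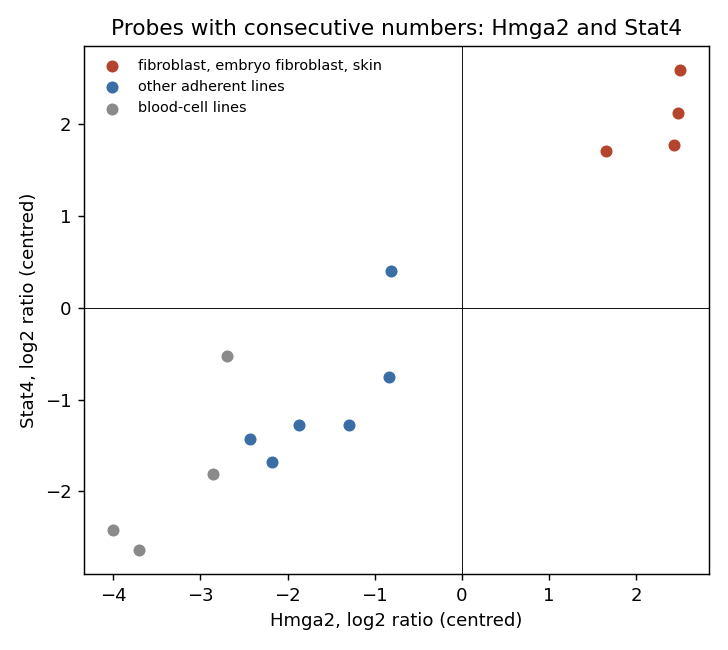
Log2 ratio of Stat4 against that of Hmga2 on each of the 14 arrays, coloured by group. The 4 trio arrays sit alone at the upper right (Hmga2 at 1.66 or above, Stat4 at 1.71 or above), and the blood-cell arrays reach the lowest values of both.

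Adm codes for the precursor of adrenomedullin, a peptide that widens blood vessels. It read -0.59 and 1.79 on the 2 fibroblast arrays, -0.05 in embryo fibroblast and 0.52 in skin, against -2.07 and -1.97 on the mammary tumor arrays, -2.22 in liver, -1.98 in kidney, -2.09 in testis and -2.72 in myoblast. The trio stood near the pool and the other 5 lines clearly below it, in a narrow band. The 2 fibroblast arrays differed from each other more than the lines of either group did. The trio averaged 0.36 ± 0.36 and the other lines -2.21 ± 0.30 (SD), a difference of 2.57 ± 0.31 (SE), 5.92-fold, with an adjusted p of 0.0159. T-cell lymphoma read -0.60 and so came between the groups, while macrophage (-2.56) and myeloma (-2.03) lay with the other adherent lines. Over the 20 alternatives its adjusted p ran from 0.0109 to 0.998. Adm was not called with skin among the others (0.998), with the line (0.0664) or the image run (0.228) as a block, or without fibroblast array 2 (0.101), testis (0.0748), embryo fibroblast (0.077), skin (0.117) or both fibroblast arrays (0.136).

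The promoters of Hmga2 and Adm are shown because these 2 genes were called higher and have an entry in the RefSeq promoter table. Each run is the 250 bases before the annotated start, 5′ to 3′ on the gene's own strand, on GRCm38.p6. The Hmga2 window is chr10:120476470-120476719 on the minus strand, and the Adm window is chr7:110627407-110627656 on the plus strand. Capitals mark matches, on either strand, to a GC box (GGGCGG) or to a TATA box (TATAA).
Hmga2: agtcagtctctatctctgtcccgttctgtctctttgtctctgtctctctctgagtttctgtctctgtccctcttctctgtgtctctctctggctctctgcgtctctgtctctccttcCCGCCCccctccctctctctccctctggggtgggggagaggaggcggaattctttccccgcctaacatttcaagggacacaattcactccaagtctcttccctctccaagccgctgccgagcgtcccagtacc
Adm: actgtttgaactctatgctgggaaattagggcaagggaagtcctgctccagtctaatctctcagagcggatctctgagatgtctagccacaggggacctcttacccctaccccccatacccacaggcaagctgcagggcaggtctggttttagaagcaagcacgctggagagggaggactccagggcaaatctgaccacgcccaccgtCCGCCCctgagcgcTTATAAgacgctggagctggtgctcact
The Hmga2 window held 1 GC box, 133 bases before the start, and no TATAA. It consists to 70.8% of C and T, a share that 0.414% of the 32851 promoters in the table reach. The Adm window held 1 GC box, 42 bases before the start, and TATAA on both strands at overlapping places 28 and 27 bases before it. Of all 32851 promoters, 32.7% held GGGCGG and 22.8% held TATAA in this window. The AP-1 letters TGANTCA, found in 6.75% of promoters, were in neither window. These matches describe the sequence and were not set against the values.

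Pdgfb codes for the B chain of platelet-derived growth factor, a ligand that acts on fibroblasts and other mesenchymal cells and is itself mostly made by other cell types. It was the gene called lower. It read -1.07 and -3.30 on the fibroblast arrays, -2.47 in embryo fibroblast and -3.21 in skin, against 0.60 and 0.62 on the mammary tumor arrays, 1.60 in liver, 2.41 in kidney, 1.53 in testis and -0.06 in myoblast. Every trio array lay under every other adherent array, with myoblast, the nearest, still near the pool. The trio averaged -2.62 ± 0.53 and the other lines 1.22 ± 0.96 (SD). The difference was -3.84 ± 0.53 (SE), a 14.3-fold lower ratio, with an adjusted p of 0.0358. The blood-cell lines read 1.02 in macrophage, -0.75 in myeloma and -0.18 in T-cell lymphoma. Over the 20 alternatives its adjusted p ran from 0.0186 to 0.998. It was not called with skin among the others (0.998), or without mammary tumor array 1 (0.0507), liver (0.0629), fibroblast array 2 (0.104), testis (0.0859), embryo fibroblast (0.153), skin (0.164) or both fibroblast arrays (0.136). Pdgfra, a receptor gene for this ligand, had 2 probes, and no probe was named Pdgfrb. The Pdgfra probes read -0.71 and 0.16 in fibroblast, -2.23 and -0.59 in embryo fibroblast and -0.97 and -0.08 in skin. They read 0.23 and -0.34 in mammary tumor, -1.16 and -2.31 in liver and -1.82 and -1.85 in kidney. In testis they read 1.76 and -0.08, and in myoblast -1.21 and -0.56. The probes disagreed, with differences of -0.86 and 0.86 (adjusted p 0.997 each).

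Crabp1 and Grem1, the other markers given for the trio, were each high in 2 of its 3 lines. Crabp1, a cytosolic binder of retinoic acid, read 2.26 and 2.80 on the fibroblast arrays and 2.43 in embryo fibroblast, but -3.11 in skin, against -4.18 and -3.13 on the mammary tumor arrays, -3.36 in liver, -2.51 in kidney, -3.02 in testis and -3.30 in myoblast. The skin line thus lay inside the range of the other lines. Over all 3 lines the difference was 3.78 ± 1.08 (SE) with an adjusted p of 0.711. Without the skin line it was 5.65 ± 0.39 with an adjusted p of 0.000501, and with the skin line counted among the others it was 5.64 ± 0.35 with an adjusted p of 8.3e-05, the only call under that grouping. With all 3 trio lines kept and the image run as a block, a fit in which the skin array stands alone in its run, the difference was 5.42 ± 0.40 with an adjusted p of 0.00307. Over 20 alternatives the adjusted p of Crabp1 ran from 8.3e-05 to 0.999.

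Grem1, a secreted protein that binds and blocks bone morphogenetic proteins, was split differently. It read 2.34 and 1.31 on the fibroblast arrays and 1.11 in skin, but -3.74 in embryo fibroblast, against -3.28 and -3.82 on the mammary tumor arrays, -3.93 in liver, -3.32 in kidney, 0.12 in testis and -2.89 in myoblast. Testis stood well above the other 4 adherent lines outside the trio. The difference was 2.44 ± 1.24 (SE) with an adjusted p of 0.997. Of the 3 markers, then, Hmga2 alone separated all 3 trio lines from the rest.

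**Figure D3:**
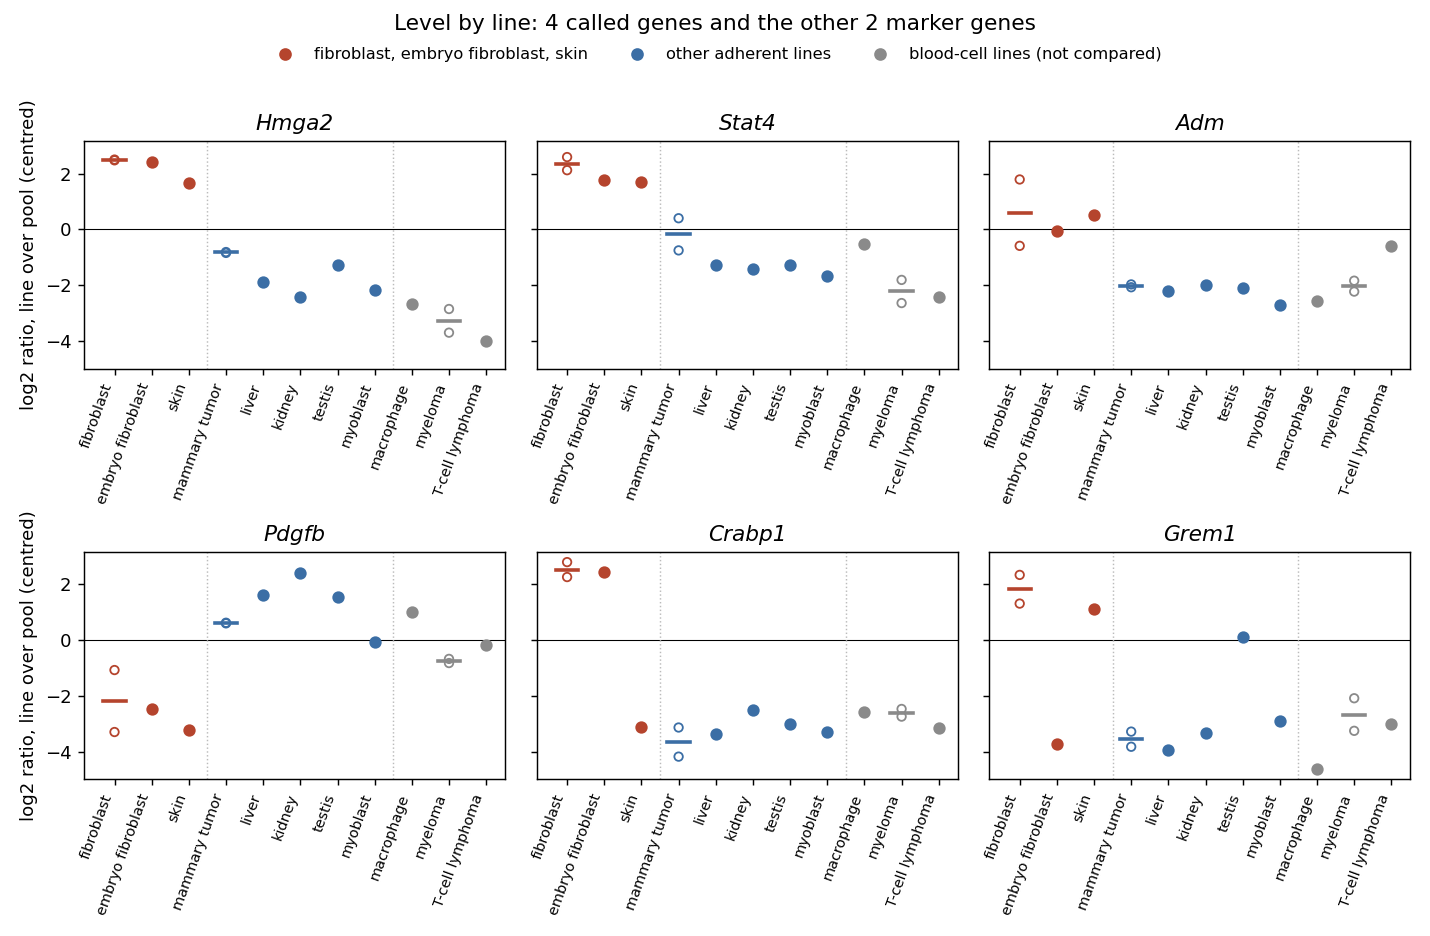
Log2 ratio of each line over the pool for the 4 called genes and for Crabp1 and Grem1, with the trio at the left, the 5 other adherent lines in the middle and the blood-cell lines at the right. Open circles are the 2 arrays of a line and the bar their mean. Hmga2, Stat4, Adm and Pdgfb part the trio from the other adherent lines, whereas Crabp1 is low in skin (-3.11) and Grem1 is low in embryo fibroblast (-3.74).

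The same division was looked for by level. Only Hmga2 and Stat4 (0.0267% of features) read at least 1 in all 3 trio lines and at or below 0 in all 5 others. Crabp1 was the 1 feature (0.0133%) with that pattern for fibroblast and embryo fibroblast alone. No feature had it for fibroblast and skin, and 1 unnamed probe had it for embryo fibroblast and skin. Genes with the pattern in 1 trio line were more numerous, with 5 features for fibroblast (0.0667%), 12 for embryo fibroblast (0.16%) and 5 for skin (0.0667%).

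The genes with this pattern in embryo fibroblast, alone of the adherent lines, included Ngef, a guanine exchange factor of the nervous system, at 4.26 against -1.03 in fibroblast and -0.04 in skin. Dlk1, an imprinted gene of fetal tissue, read 2.70 in embryo fibroblast, -1.27 in fibroblast and -1.68 in skin. Tnfrsf11b, the decoy receptor osteoprotegerin, read 2.37 in embryo fibroblast and -1.61 and -1.19 in the same lines. The homeobox gene Dlx2 read 1.62 in embryo fibroblast, and Rgs2, a brake on G protein signalling, read 3.05 there and 2.42 in macrophage. In skin, alone of the adherent lines, Eng, a co-receptor for TGF-beta, read 1.22, against -1.73 in fibroblast and -1.56 in embryo fibroblast, and its macrophage value was 0.95. Cd48, a surface protein best known from leukocytes, read 1.41 in skin and 2.07 in myeloma. In fibroblast, alone of the adherent lines, the adenylyl cyclase gene Adcy8 read 1.66 and the interferon-inducible gene Ifi203 read 1.51, with 1.85 for Ifi203 in macrophage.

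The next genes by p, none of them called in the comparison of line means, were described by their values. The first described are those whose 3 trio lines all lay above the other 5. Ptges, which makes prostaglandin E2, read 0.85, -0.21 and 0.37 in fibroblast, embryo fibroblast and skin, against -2.35, -1.87, -3.27, -3.59 and -2.07 in mammary tumor, liver, kidney, testis and myoblast, a difference of 2.97 ± 0.46 (SE) with an adjusted p of 0.0662. Fgf7, a mesenchymal growth factor for epithelial cells, read 0.96, 2.34 and 0.37 in the trio, against values from -2.61 to -1.21 in the other lines (difference 2.98 ± 0.50, adjusted p 0.0932). Fgf10, a related ligand needed for the outgrowth of limb and lung, read 0.99, -0.05 and 1.16, against -2.73 to -0.74 (difference 2.25 ± 0.52, adjusted p 0.424). Foxc1, a forkhead factor of the mesenchyme, read 1.74, 1.38 and 0.78, against -1.96 to -0.39 (difference 2.59 ± 0.42, adjusted p 0.0911). The ETS factor gene Etv1 had a difference of 2.43, and its macrophage value of 1.56 was higher than in any trio line. With the line as a random block Foxc1 (adjusted p 0.0182) and Fgf7 (0.0488) were called. Fgf7 was also called with no centring (0.0348), Foxc1 without myoblast (0.0457) and Ptges without mammary tumor array 2 (0.0499). These were the only calls of the 3 genes over 20 alternatives, whose adjusted p reached 0.841 for Foxc1 and Fgf7 and 0.998 for Ptges.

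Other genes in this order were of mixed function. Ctsl, a lysosomal protease that cells can also secrete, read 2.15, 0.74 and 1.35 in fibroblast, embryo fibroblast and skin, against -2.78 to 0.41 in the others, with myoblast the highest of these. Gja1, the gap junction protein connexin 43, read 1.28, 0.34 and 0.70 against -1.55 to -0.35, and lay at -4.18, -4.92 and -3.20 in macrophage, myeloma and T-cell lymphoma. Peg12, an imprinted gene, had the most even line means within the trio at 1.23, 1.33 and 1.36, against -1.26 to 0.74. Its 2 fibroblast arrays read 1.72 and 0.74, the second no higher than myoblast (0.74). The differences of Hebp1, a heme-binding protein gene, of Sh3gl3, an endophilin gene, and of Mpp6, a scaffold protein gene, were 2.12, 2.38 and 1.58. At Sh3gl3 fibroblast array 1 (-0.08) lay below mammary tumor array 2 (0.14). No outside line was consistently nearest. Over the 15 named genes of this direction, mammary tumor and testis were nearest to the trio for 4 each, liver and myoblast for 3 each and kidney for 1.

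Among genes whose trio lines all lay below the others, Igfbp7, a secreted insulin-like growth factor binding protein, read -1.36, -2.003 and -2.17 in fibroblast, embryo fibroblast and skin, against 1.32, 0.28, 1.98, 0.32 and 1.61 in mammary tumor, liver, kidney, testis and myoblast (difference -2.95 ± 0.45, adjusted p 0.0662). Tgfb2, a TGF-beta ligand, read -2.29, -2.49 and -1.86, against -1.10 to 2.16 (difference -2.95 ± 0.61, adjusted p 0.273). Hes1, a repressor induced by Notch, read -1.70, -1.28 and -2.23, against -0.32 to 2.26. Tgm2, the cross-linking enzyme transglutaminase 2, read -2.58, -1.14 and -2.99, against -0.86 to 1.40. Col12a1, a collagen that sits on fibrils, read -3.30, -3.51 and -2.03, against 1.97, -1.98, -0.07, 1.65 and 2.43, so that liver nearly touched the trio (difference -3.75 ± 0.89, adjusted p 0.424). Igfbp7 was called with the line as a random block (adjusted p 0.0182), with no centring (0.0447) and without liver (0.0456). Col12a1 was called without liver (0.0456) and Tgfb2 without kidney (0.0466). The 3 genes had no other call over 20 alternatives, whose adjusted p reached 0.998 for Igfbp7 and Tgfb2 and 0.945 for Col12a1.

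Further genes below were Vldlr, a lipoprotein receptor (difference -2.86), Eya4, a transcriptional co-activator (-2.57), Sumo3, a small protein modifier (-2.45), Gna14, a G protein subunit (-2.41), Cd82, a tetraspanin (-2.18), Mpp2, a scaffold protein (-2.06), and Myo18a, an unconventional myosin (-1.35). Ablim1, an actin-binding protein gene, had a difference of -2.32 at this probe and -1.32 at another. Kcnq1, a potassium channel gene, had -1.49 at this probe but 0.26 and -0.48 at 2 others. Of the 15 named lower genes, macrophage lay inside the trio's range or beneath it for 7, myeloma for 5 and T-cell lymphoma for 4. For Igfbp7 macrophage, myeloma and T-cell lymphoma read -1.91, -1.36 and -2.73, and for Vldlr -2.44, -2.34 and -3.53. At Vldlr the groups parted only as line means, with fibroblast array 2 (-0.55) above both mammary tumor arrays (-1.72 and -0.60).

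**Figure D4:**
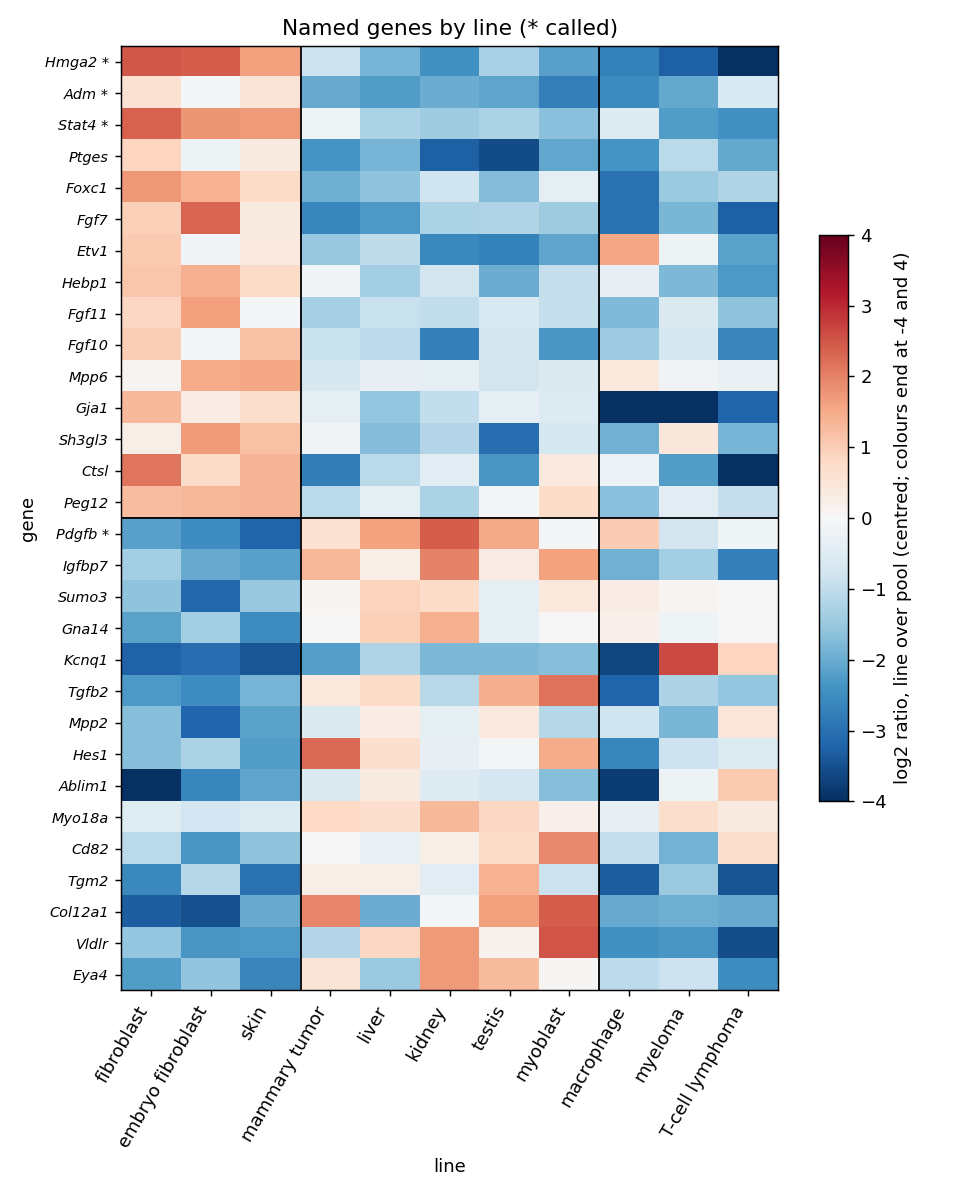
Log2 ratio by line for the 15 named genes that lay above and the 15 that lay below the other adherent lines in all 3 trio lines, in order of p within each part, with the called genes starred. The trio columns at the left are mostly red above the black line and blue beneath it, while the blood-cell columns at the right are mixed.

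Gene lists written with earlier results known were read against all features, whose median difference was -0.03, with 3536 of 7497 (47.2%) above 0. Over 29 lists the only genes called were Hmga2, in the list of embryonic and oncofetal genes, and Pdgfb, in the list of growth factors, against 0.04% and 0.0133% of all features called higher and lower.

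Matrix lists lay below the median of all features. For 23 probes of collagen genes the median difference was -0.45, 7 were above 0, and all trio lines lay below the others for 2, Col4a5 and Col12a1, against 2.32% of all features. The median level of these probes was -0.13 in fibroblast, -0.59 in embryo fibroblast and -0.81 in skin, against 0.79 in mammary tumor, -0.68 in liver, -0.73 in kidney, 0.41 in testis and 0.55 in myoblast, so the groups overlapped. The 19 probes for collagen processing had a median of -0.48, the 35 for proteoglycans and matrix glycoproteins one of -0.37, and the 22 for basement membrane one of -0.36. Postn, the matrix protein periostin, read -2.92, -3.61 and -1.24 in fibroblast, embryo fibroblast and skin, against 1.99, -0.43, -1.03, -1.64 and 2.58 in the others (difference -2.88 ± 0.96, adjusted p 0.788). Sparc, a collagen-binding glycoprotein, had a difference of -0.94 ± 0.53 (adjusted p 0.997) that became 0.26 with the image run as a block. Serpinh1, the collagen chaperone HSP47, had -1.07 ± 0.64 (adjusted p 0.997), which became 0.25 in that fit. Skin, mammary tumor and myoblast did not enter the difference of that fit. The median for proteoglycans was -0.04 without the skin line, and for basement membrane it was -0.58.

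The list of fibroblast and mesenchymal identity genes had a median of 0.00 over 48 probes, with 24 above 0. For 5 of them all trio lines lay above the others, namely Cd44, S100a4, Fgf7, Twist2 and Vim, and for Mcam and Mdk all lay below, against 1.59% and 2.32% of all features. Twist2, a factor of dermal mesenchyme, read 2.54, 1.60 and 1.09 in fibroblast, embryo fibroblast and skin, against 0.89, -0.70, 0.77, 0.36 and -0.82 in mammary tumor, liver, kidney, testis and myoblast (difference 1.64 ± 0.50, adjusted p 0.787). S100a4, a calcium-binding protein often used to mark fibroblasts, read 1.05, 1.23 and 1.58, against 0.05, -1.98, -2.83, 0.81 and 0.32. The second probe of Cd44, a hyaluronan receptor, had a difference of -0.01, against 0.74 at the first.

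Of 50 probes of the BMP and TGF-beta pathway, 24 were above 0, the median was -0.07, and all trio lines lay below the others for 5 (2.32% of all features did) and above for none (1.59%). These were the ligands Tgfb2 and Tgfb3, the signal carrier Smad5, the inhibitor Smad6, and Id3, a gene that BMP signals induce. Id3 read -1.76, -2.08 and -2.25 in fibroblast, embryo fibroblast and skin, against 2.05, 0.65, -1.44, 0.05 and 1.30 in the others (difference -2.55 ± 0.65, adjusted p 0.503). The fibroblast arrays of Id3 read -2.81 and -0.70, the second above kidney, so the groups parted only as line means. Its relatives Id1 and Id2 had differences of -1.41 and -1.83. Of the 65 probes of growth factors and their receptors, 30 were above 0. All trio lines lay above the others for the ligands Ereg, Vegfb, Fgf7 and Fgf10, and below for Pdgfb, for Mdk, the ligand midkine, and for 2 probes of the receptor Erbb2, that is for 4 probes each way, against 1.59% and 2.32% of all features. In the Wnt list 9 of 49 probes were above 0 with a median of -0.21, and the ligands Wnt10a and Wnt6 had differences of -2.71 ± 1.09 and -1.67 ± 0.72 (adjusted p 0.9 and 0.939).

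The highest list median was that of the cytosolic ribosomal protein genes, at 0.51, with 37 of 43 probes above 0. All trio lines lay above the others for 5 of them, Rps16, Rps7, Rpl3, Rps29 and Rplp0, against 1.59% of all features. The median level of the list was 0.24 in fibroblast, 0.67 in embryo fibroblast and 0.51 in skin, against -0.18 in mammary tumor, 0.09 in liver, 0.00 in kidney, -0.36 in testis and 0.34 in myoblast, so fibroblast and myoblast overlapped. Rps16, of the small subunit, read 0.23, 1.41 and 1.11 against -1.03 to 0.20 (difference 1.17 ± 0.38, adjusted p 0.788). Fibroblast array 1 read 0.03 at Rps16, below myoblast (0.20). Interferon response and MHC genes followed at 0.30, with 17 of 26 probes above 0, although the trio lay below the others for Irf1, an interferon-induced factor, and Psmb8, a subunit of the immunoproteasome (2.32% of all features lay below). The median level of that list was 0.001 in fibroblast, -0.43 in embryo fibroblast and -0.80 in skin. In the other adherent lines it ran from -0.97 in kidney to -0.32 in myoblast, so the groups overlapped. At Psmb8 fibroblast array 2 (-1.42) lay above kidney (-1.86). In the list of cell cycle genes, with a median of 0.01 over 57 probes, Ccnd1, which codes for cyclin D1, read 1.06, 0.85 and 0.74, against 0.60, 0.56, -0.95, -1.16 and -0.58 (difference 1.19 ± 0.45, adjusted p 0.852). At Ccnd1 fibroblast array 1 (0.54) lay below mammary tumor array 2 (0.95).

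Epithelial genes had a median of -0.31 with 10 of 36 probes above 0. F11r, a tight junction protein gene, had a difference of -2.24 ± 0.62 (adjusted p 0.64), while Itga6, the laminin-binding integrin subunit, went the other way with 1.43 ± 0.41 (adjusted p 0.714). The lowest median was that of the 47 muscle probes, at -0.50, in a comparison where the myoblast line's median was 1.30 and those of the other 7 lines lay between -0.62 and -0.04. Homeobox and patterning factors had a median of 0.10 over 63 probes, with all trio lines above the others for Foxc1, Hoxb4 and Tbx15, against 1.59% of all features. Retinoid genes had a median of -0.26 over 30 probes, Crabp1 among them. The 13 lists not described had medians from -0.19 to 0.16.

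**Figure D5:**
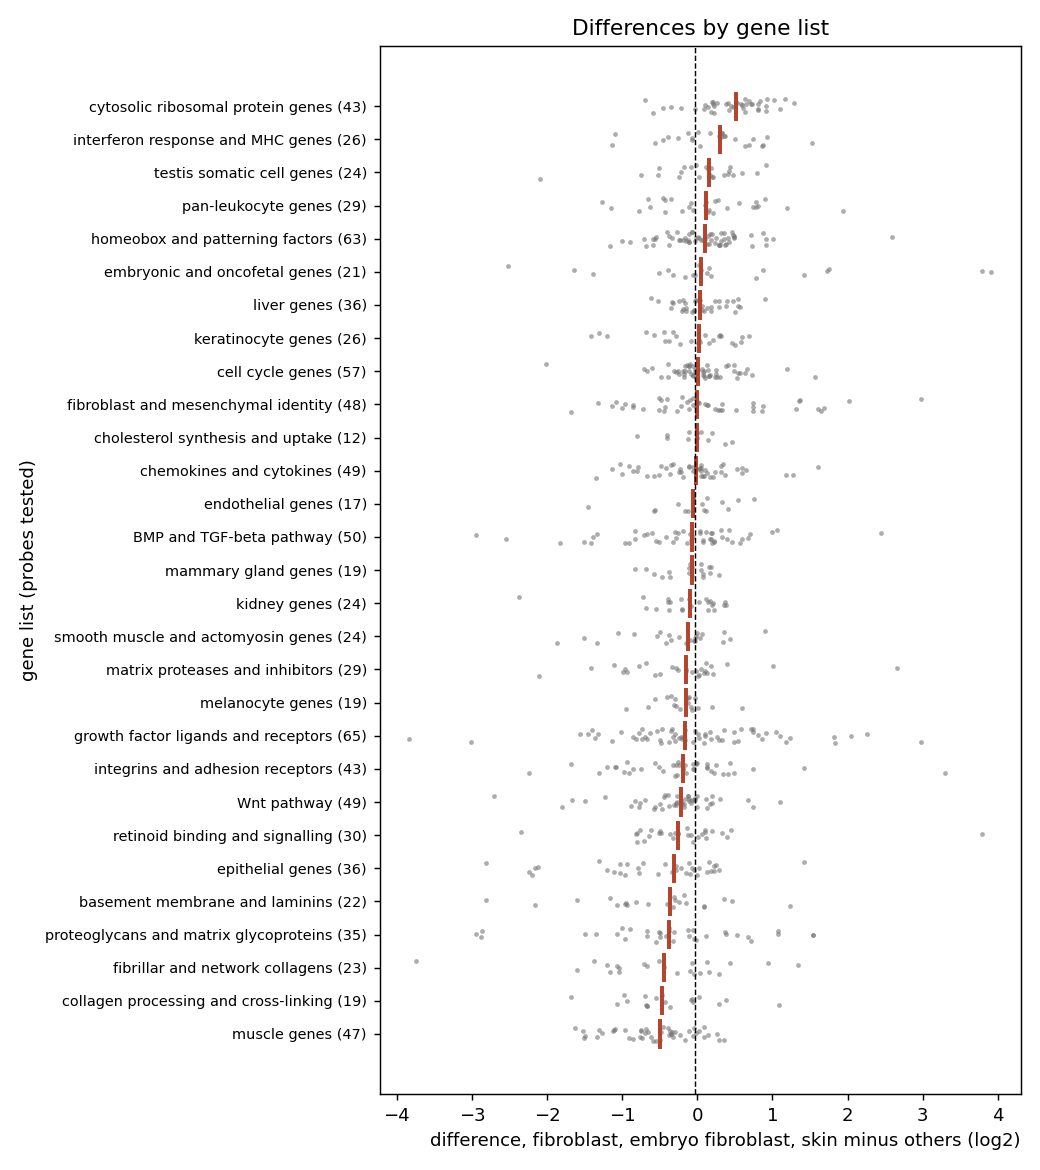
Difference of the trio minus the other adherent lines for each probe of the 29 gene lists (grey points, spread vertically for sight only), the median of each list (red bar) and the median of all 7497 features (dashed line at -0.03). Ribosomal protein genes have the highest median (0.51) and muscle genes the lowest (-0.50), and every list scatters across 0.

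Differences of the called genes are also given within the runs of image numbers that hold both groups. For each of these genes every trio array lay beyond every other adherent array. The direction within a run was therefore fixed in advance and is no separate result. In the run with embryo fibroblast, fibroblast array 1 and kidney, the difference was 4.88 for Hmga2, 3.38 for Stat4, 1.66 for Adm and -4.18 for Pdgfb. In the run with fibroblast array 2, liver and testis it was 4.09, 3.87, 3.95 and -4.86 for the same genes. The skin array and mammary tumor array 1 were each alone in their run, so run and line cannot be told apart for them.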

How the data were processed

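The authors' deposited table held 1 value per spot and array, 7680 spots on 14 arrays, of which 423 of 107520 cells (0.393%) were empty. The deposited values were read as log2 ratios of line over pool. No source states base or direction, so the values were used: in a pool of equal shares the unlogged ratios of a probe average 1 over the lines. The median of that average was 1.00 for log2 of line over pool, 1.20 for the reverse ratio, 1.07 for natural logs and 1.87 for log10, so base 2 against natural logs rests on a small margin. Folds rest on base 2. The authors' background correction, spot filters and normalization are not stated in the labels, and no dyes were exchanged, so a probe's dye effect enters every ratio alike. No intensities are used here, so spots near background cannot be marked, and the number of arrays limits the precision.

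Array medians ran from -0.508 to 0.124 and were set to 0. The 80 Gapdh spots were averaged. The 2 arrays of a line were averaged, with the remaining array used where a spot was empty. The 3 and 5 line means were compared with limma 3.58.1 (R 4.3.3, lmFit and eBayes, two-sided, Benjamini-Hochberg adjusted p under 0.05 over 7497 features). The procedure was tested on simulated data with 200 changed features. It called 0% of them at a log2 change of 1, 59.5% at 2 and 89% at 3, with 0, 7 and 6 false calls. Differences of about 1 on the log2 scale would thus mostly be missed. Symbols came from the platform annotation (6835 spots with 1 gene, 4 with several, 841 unlisted) and were matched to RefSeq for 6809. Promoters came from RefSeq, GRCm38.p6. The genes named were the 3 markers, up to 15 per direction (called genes first, then by p among genes whose groups did not overlap), and per list the called members or the 2 of smallest p. Others, such as Id1, Id2 and those of 1 line only, were chosen after their values were seen. The members and lists were chosen with earlier results of these data known. Alternatives tried were no centring, quantile normalization, the line or the image run as a block, a looser filter on empty spots, gene averages, robust moderation, the skin line among the others and leaving out arrays. With the image run as a block, arrays counted singly and only runs holding both groups set the difference. Skin, mammary tumor and myoblast thus did not enter the difference in that alternative.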

Additional observations from a re-analysis of the deposited data

Results flagged for a closer look

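Among 75 named genes, 5 had 1 line standing apart from the other 4 of the 5 other adherent lines, where chance flags about 1 in 20 groups. Grem1 read 0.12 in testis, against -3.93 to -2.89 in the rest. Stat4 read -0.18 in mammary tumor, against -1.68 to -1.28. Hnf4a, a liver transcription factor, read -1.16 in kidney, against -0.23 to 0.09. Sprr1a, a protein of the cornified skin layer, read 0.85 in liver, against -1.75 to -1.40. Tyrp1, a pigment cell enzyme, read 0.51 in testis, against -0.21 to -0.09.

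Among the 15 named genes in which the trio lay above the other adherent lines, a blood-cell line outside the comparison reached the range of the trio in 3. Etv1 read 1.56 in macrophage, above all 3 trio lines. Mpp6 read 0.42 in macrophage, where the lowest trio line read 0.09. Sh3gl3 read 0.47 in myeloma, where the lowest trio line read 0.24.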

How the results depend on the processing

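The number of features called was 4, and it was 7 with the line as a random block, 1 with the skin line among the others and 0 with both fibroblast arrays left out (limma, 355 at an unadjusted p under 0.05), an alternative chosen after seeing the data. Leaving out each array or line in turn gave 0 to 6 calls. It was 0 without embryo fibroblast (335 at an unadjusted p under 0.05), 1 without testis, and 2 each without mammary tumor array 1, fibroblast array 2 or skin. Over 20 alternatives for 75 named genes, 1458 of 1500 values kept their direction and side of the threshold, 26 lost a call and 13 gained one. Most of the 75 genes were not called to begin with, so the first count says little about the calls. Only the 4 called genes could lose a call. Hmga2, Stat4, Adm and Pdgfb kept theirs in 17, 13, 12 and 12 of the 20 alternatives. The 3 that turned, all with the image run as a block and none called, were Sparc (0.26), Serpinh1 (0.25) and Tpm1 (0.038). Skin, mammary tumor and myoblast did not enter the difference of that fit, so it compared other lines than the main fit. Without the skin line the list median moved to -0.043 for proteoglycans, -0.58 for basement membrane, -0.078 for matrix proteases, -0.22 for melanocyte genes, -0.043 for pan-leukocyte genes and 0.045 for cell cycle genes. With quantile normalization it was 0.34 for pan-leukocyte and 0.044 for cell cycle genes. Each of these 8 moved by more than the SD of that list's median difference over the 3 trio lines, and the other 50 of 58 list medians by less. The cause was not tested. No paired analysis was possible because the number 2 in the labels marks a second array of 1 line and pairs no lines across the groups.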

Other observations

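The probe that read at least 1 in embryo fibroblast and skin and at or below 0 in the other adherent lines has no gene name in the annotation used here. It read 2.60 in embryo fibroblast, 1.42 in skin and -0.53 in fibroblast, against -0.59 in mammary tumor and between -5.52 and -4.02 in the other 4 adherent lines. The T-cell lymphoma line read -5.59 at this probe.

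Alcam, an adhesion protein of the immunoglobulin family, had a difference of 3.30 without passing limma's test (adjusted p 0.715), and Igfbp4, a secreted insulin-like growth factor binding protein, had one of -3.01 (adjusted p 0.93). Both were chosen after their values were seen.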
